A study of Mus musculus with 2 samples.

Results

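The miRNAs described here are the mouse names numbered 670 to 770 on an Agilent miRNA array, leaving out the starred names of minor arms and the names miR-673, miR-679, miR-758 and miR-770 of the imprinted Dlk1-Meg3 region. There were 65 such names, carrying 59 different numbers, among 566 mouse names on the array. The rule reads only names, but the range was chosen by looking at the signals and detection calls of these same arrays, so the values below are descriptions without any test. Each group was 1 sample on 1 single-colour (Cy3) array: total bone marrow (total BM) or LKS cells, both from C57BL/6J mice with no treatment or altered gene named. LKS cells are the marrow cells negative for lineage markers and positive for Kit and Sca1, here purified by a magnetic column step and fluorescent sorting. They hold haematopoietic stem and early progenitor cells together, and total BM contains them as a small share. How many animals gave each sample, and their age, were not given in the sources used here. Neither group has a replicate, and the error printed with a signal is the technical error deposited beside it.

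A mature miRNA is a short RNA cut from a hairpin, and its seed, bases 2 to 8 from the 5′ end, largely decides which messenger RNAs it represses. Numbers were given to miRNAs in order of discovery, so neighbours in number need share neither seed nor function. Many mouse names in this range came from early sequencing screens, and some have since proved to be pieces of other RNAs: the human miRNA numbered 720 is known as a transfer RNA fragment, and mouse miR-712 is known to come from precursor ribosomal RNA. In these data 57 of the 65 names matched a gene in RefSeq (mouse assembly GRCm38.p6) and 8 did not, namely miR-685, miR-689, miR-696, miR-699, miR-712, miR-714, miR-715 and miR-720. For 39 of the 57, a locus of the miRNA gene lay within the span of a protein-coding gene. This count leaves out miR-718, whose mature sequence lay within the span of Irak1.

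Mature sequences were available from RefSeq (GRCm38.p6) for 39 of the 65 names, matched by identical name. The first set is shown because these miRNAs differed most between the arrays among the members with a sequence, and miR-130a-3p is added because it shares the seed of miR-721. Capitals mark the seed. MiR-671-5p lies at chr5:24592132-24592154 on the plus strand within the span of Chpf2, miR-705 at chr6:85336341-85336360 on the minus strand within the span of Rab11fip5, miR-721 at chr5:136375777-136375797 on the minus strand within the span of Cux1, and miR-130a-3p at chr2:84741116-84741137 on the minus strand. Spans run from the first to the last base of a gene, and exons were not resolved.
miR-671-5p: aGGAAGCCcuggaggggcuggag
miR-705: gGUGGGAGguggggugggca
miR-721: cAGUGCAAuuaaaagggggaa
miR-130a-3p: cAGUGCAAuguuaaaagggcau

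The second set shows the base composition described further on, and was picked after the values had been seen. Capitals mark runs of at least 4 guanines. MiR-680 has 3 RefSeq loci, on chromosomes 6, 12 and X. MiR-711 lies at chr9:108969970-108969991 on the plus strand within the span of Col7a1, miR-762 at chr7:127708534-127708555 on the plus strand within the span of Bcl7c, and miR-706, which has no such run, at chr6:120034290-120034311 on the minus strand within the span of Wnk1.
miR-680: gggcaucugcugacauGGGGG
miR-711: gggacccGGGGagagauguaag
miR-762: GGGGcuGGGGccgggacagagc
miR-706: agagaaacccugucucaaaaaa

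No seed was shared between any pair of the 39 members with a sequence. In RefSeq, however, miR-743b-3p has the seed of miR-743a-3p. The member miR-743a is named without an arm on the array, so it had no matched sequence. Outside the range, the first 9 bases of miR-721 are those of miR-130a-3p. RefSeq lists 6 other mature miRNAs with the seed of miR-721, among them miR-130b-3p and miR-301a-3p.

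The sample labels were checked on known blood miRNAs. The erythroid miR-144, miR-451 and miR-486 and the lymphoid miR-150 were detected in total BM only, and the neutrophil miR-223 was 5.34-fold lower in LKS cells. The signals of these 5 summed to 7577 intensity units in total BM and 808 in LKS cells. Most of both sums was miR-223, which read 7250 and 822. The LKS sum is below that of miR-223 because it includes undetected miRNAs with signals below 0. Of 4 progenitor miRNAs, miR-196b, miR-126-3p and miR-130a had log2 ratios (LKS over total BM, scaled as below) of 2.58 to 4.79, and miR-125b-5p was detected in LKS cells only. The signals of these 4 summed to 50.7 and 425. The LKS array was dimmer: the 6 non-miRNA probes detected on both arrays had a median log2 ratio of -0.49, and background-subtracted signals were below 0 for 315 of 566 mouse names in total BM and 406 in LKS cells.

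Members of the range were detected mainly in total BM. The deposited detection call was positive in total BM for 19 of 65 members (29.2%), against a background of 25.6% of all 566 mouse names. Requiring instead a signal above the brightest viral probe (43.8) left 9 of 65 (13.8%), against 12.7% of all names. In LKS cells the detection call was positive for 6 of 65 (9.23%), against 17.3% of all names. All 6 were also detected in total BM. No member was thus detected in LKS cells only, where just 0.883% of all names were. Total BM alone detected 13 members (20%), against 9.19% of all names. Neither array detected 46 members (70.8%), near the 73.5% of all names. With 1 array each, RNA from fewer cells of a type and less of the miRNA per cell cannot be told apart. The miRNAs of mature blood cells and the dimmer LKS array moved with these counts, and their part in them was not tested.

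Within the range, detection was uneven. Of the 16 names from miR-705 to miR-721, total BM detected 10 and LKS cells 5. The corresponding counts were 7 and 1 of the 36 names with lower numbers, and 2 and 0 of the 13 names with higher ones. These stretches were set after the values had been seen. Of the 8 names without a RefSeq gene, total BM detected 5 and LKS cells 4, whereas they detected 14 and 2 of the 57 names with a gene. Among the 501 mouse names outside the range, 11 had no RefSeq gene, of which total BM detected 2 and LKS cells 0.

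**Figure D1:**
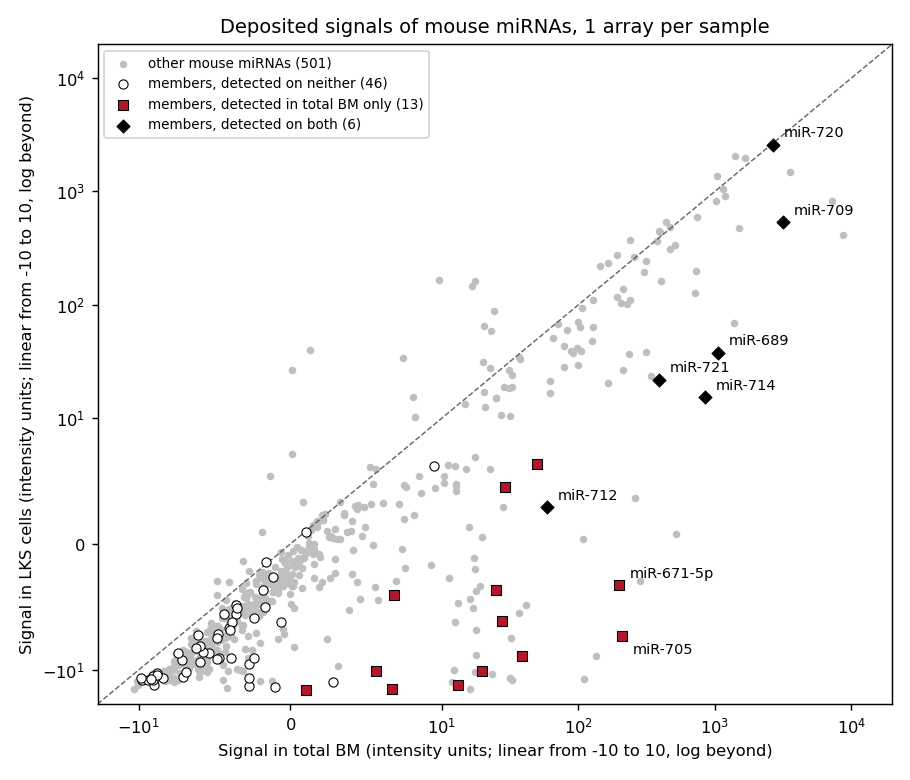
Deposited signal in LKS cells (vertical) against total BM (horizontal), in intensity units, for 566 mouse miRNA names on 1 array each; both axes are linear from -10 to 10 and logarithmic beyond, and the dashed line marks equal signals. The 13 members detected in total BM only (red squares) and 5 of the 6 detected on both arrays (black diamonds) lie far below the line, while miR-720 lies on it.

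Both arrays detected 6 members. Their ratios were taken after each array was scaled to the 75th percentile of its signals for the 93 mouse miRNAs with a positive call on each of the 2 arrays, 399 in total BM and 242 in LKS cells, which added 0.72 to every log2 ratio of LKS over total BM. Of the 6, 5 were at least 2-fold lower in LKS cells, where 18.3% of the 93 were. None was at least 2-fold higher, where again 18.3% of the 93 were. The median log2 ratio of the 6 was -3.52, beside 0.07 over all 93 and 0.10 over the 87 that are not members. Since each probe binds with its own affinity, the order of signals within an array is not an order of abundance.

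The bright and common member was miR-720, the name shared with the human transfer RNA fragment. It read 2647 ± 228 in total BM and 2594 ± 218 in LKS cells, so its deposited signals differed by less than either error. By brightness it ranked 5 of 566 mouse names in total BM and 1 of 566 in LKS cells. After scaling its log2 ratio was 0.69 ± 0.17, which is less than the 0.72 that the scaling adds. Without scaling the log2 ratio was -0.03, from the authors' deposited value table it was 0.04, and under quantile normalization it was 1.32.

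MiR-709, known in mouse cells as a nuclear miRNA that acts on the precursor of miR-15a and miR-16, read 3130 ± 278 in total BM and 538 ± 49.99 in LKS cells. Its LKS signal was clearly lower, with a log2 ratio of -1.82 ± 0.19 (3.52-fold). This direction turned when arrays were scaled on all mouse miRNAs, detected or not, where it became 0.30. MiR-15a and miR-16 had log2 ratios of -0.95 ± 0.15 and -1.15 ± 0.17 on the same scale.

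The other 4 were lower still. MiR-714 read 845 ± 70.0 in total BM and 15.3 ± 2.63 in LKS cells, a log2 ratio of -5.06 ± 0.28 (33.4-fold lower in LKS cells). MiR-689 read 1056 ± 81.1 and 37.9 ± 4.17, a log2 ratio of -4.08 ± 0.19 (16.9-fold). Neither name has a RefSeq gene, and by brightness miR-689 ranked 12 and miR-714 ranked 15 in total BM, but 58 and 81 among LKS signals. MiR-712, the ribosomal precursor fragment, read 59.3 ± 4.16 and 2.91 ± 2.02. Its log2 ratio of -3.62 ± 1.01 rests on the lowest detected signal of the LKS array, and it became -2.16 when the background of each array was recentred, that is, shifted so that the median of its undetected mouse names was 0.

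MiR-721, whose hairpin lies within the Cux1 span and which has been described in mouse Th17 lymphocytes, read 388 ± 19.7 in total BM, and its LKS signal was 21.9 ± 2.22. The log2 ratio was -3.42 ± 0.16 (10.7-fold lower in LKS cells). MiR-130a, which carries the same seed as printed above, went the other way, from 16.6 ± 3.13 in total BM to 146 ± 11.3 in LKS cells, a log2 ratio of 3.86 ± 0.29. The array name miR-130a gives no arm, and the comparison with miR-130a-3p rests on taking it for that arm. MiR-130b and miR-301a, read the same way, had log2 ratios of 0.76 ± 0.19 and -1.18 ± 0.31. Names with this seed thus covered both directions on these 2 arrays.

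**Figure D2:**
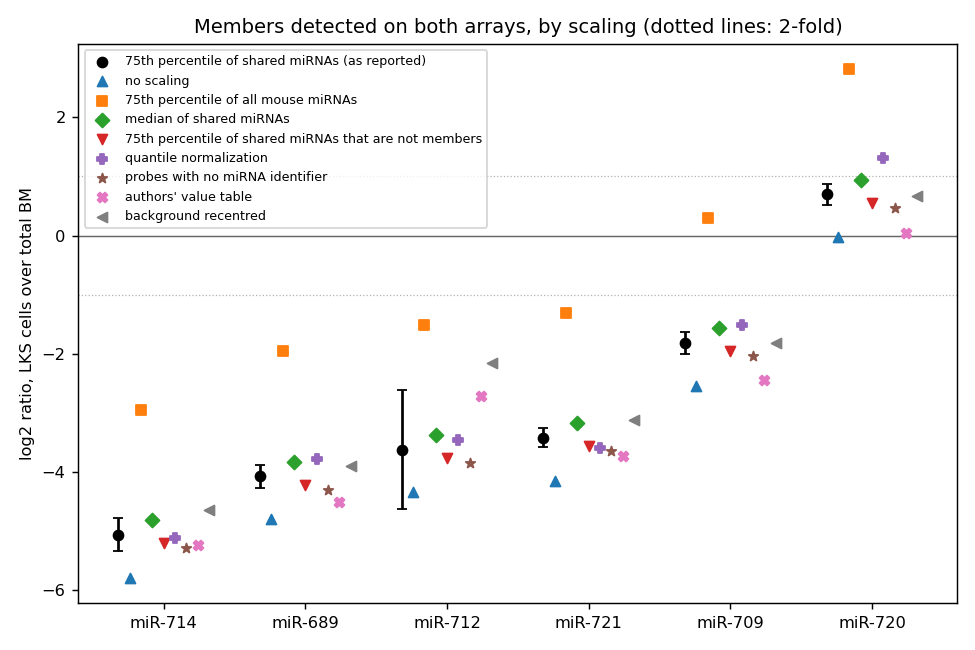
Log2 ratio of LKS cells over total BM (vertical) for the 6 members detected on both arrays, under the scaling reported (black circles, with the error propagated from the deposited signal errors) and 8 alternatives. MiR-714, miR-689, miR-712 and miR-721 stay below the 2-fold line under all 9 settings, miR-709 rises to 0.30 when scaled on all mouse miRNAs, and miR-720 ranges from -0.03 to 2.81.

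The make-up of the range differed between the arrays. Detected members together read 8756 intensity units in total BM and 3211 in LKS cells, or 16.7% and 13.8% of the summed signal of all detected mouse names. Without miR-720 these sums were 6110 and 616, or 11.6% and 2.65% of the same totals, which still contain miR-720. The range held 4 of the 20 brightest mouse names in total BM (miR-709, miR-720, miR-689 and miR-714) and 2 of the 20 brightest in LKS cells (miR-720 and miR-709). Beside these counts and shares, members were 11.5% of all mouse names, and the LKS count is near that share.

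For the 13 members detected in total BM only, the difference is given as a lower bound: the scaled total BM signal divided by a floor for LKS cells. No error was taken off the total BM signal, so the bound allows for error in the LKS signal alone. It also holds only under the scaling used. The floor was the higher of 2 values, the member's own LKS signal raised by 2 errors and the faintest detected LKS signal (2.91, that of miR-712). The bound reached 2-fold for 9 of the 13 (69.2%), beside 73.1% of all 52 mouse names detected in total BM only. The deposited signals of all 13 differed by more than 2 combined errors, but the calls that picked these members favour such a difference, so it is no separate support. Scaling on all mouse miRNAs left 2 of the 13, miR-705 and miR-671-5p, with a bound of 2-fold. After each array's background was recentred, the bound reached 2-fold for 5 of the 13. The recentred difference, under the same limit, exceeded 2 combined errors for all 13.

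The 2 bright ones were miR-705 and miR-671-5p. MiR-705, studied in mouse bone marrow mesenchymal stem cells as a repressor of Hoxa10, read 209 ± 10.9 in total BM. Its LKS signal was -7.32 ± 1.91, at least 43.5-fold lower. MiR-671-5p, which is known to direct cleavage of the circular RNA Cdr1as, read 199.6 ± 12.2 and -3.25 ± 1.92, at least 41.5-fold lower. Its opposite arm, miR-671-3p, was detected on neither array, with signals of -4.73 and -9.04. With recentred background the bounds were 15.3-fold and 14.6-fold.

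A middle group read 13.1 to 49.5 intensity units in total BM. Among these, only miR-690 read above the brightest viral probe there (43.8). MiR-690, reported as a cargo of macrophage exosomes in mice, read 49.5 ± 4.53 in total BM and 6.39 ± 2.75 in LKS cells, a bound of 2.52-fold. MiR-680 read 38.6 ± 2.81 and -8.88 ± 1.91, a bound of 8.04-fold that became 3.001-fold with recentred background. MiR-697, within the span of the splicing factor gene Sf3a3, read 28.8 ± 2.49 and 4.52 ± 1.93, a bound of 2.08-fold. These LKS signals of miR-690 and miR-697 were the only ones above 0 among the 13.

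MiR-760 read 27.7 ± 2.48 in total BM, and its LKS signal of -6.11 ± 1.91 was at least 5.76-fold lower. MiR-715, without a RefSeq gene, read 25.1 ± 2.40 and -3.63 ± 1.91, at least 5.21-fold lower. MiR-678, within the span of the arginine methyltransferase gene Prmt2, read 19.5 ± 2.28 and -10.3 ± 1.91, at least 4.07-fold lower. MiR-762 read 13.1 ± 2.28 and -13.5 ± 1.91, at least 2.73-fold lower. With recentred background the bounds of miR-760 and miR-715 became 2.21-fold and 2.02-fold, and those of miR-690, miR-697, miR-678 and miR-762 fell below 2-fold, to between 1.16-fold and 1.85-fold.

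The faintest 4 gave no bound of 2-fold. MiR-706 read 6.83 ± 2.12 in total BM and -4.07 ± 1.91 in LKS cells, miR-710 read 6.68 ± 2.12 and -14.6 ± 1.91, and miR-681 read 5.62 ± 2.12 and -10.2 ± 1.91, with bounds of 1.42-fold, 1.39-fold and 1.17-fold. MiR-711, within the span of the collagen gene Col7a1, read 1.01 ± 2.06 and -15.1 ± 1.91. The call for miR-711 in total BM was positive although its signal was below its error, the lowest of any detected mouse name there, and its LKS signal was the lowest of all 566.

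**Figure D3:**
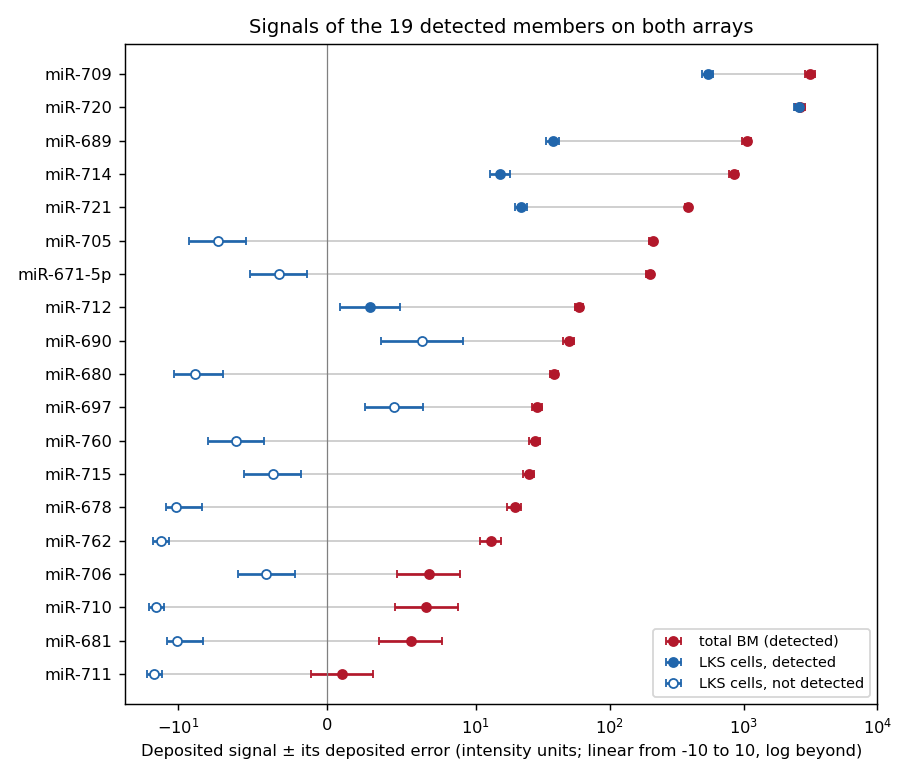
Deposited signals with their deposited errors (horizontal, intensity units, linear from -10 to 10 and logarithmic beyond) for the 19 members detected in total BM, ordered by that signal. LKS signals (blue, open where not detected) lie below the total BM signals (red) for every member, and the separation is within the errors for miR-720 alone. These signals are not scaled between arrays, and picking members by their call in total BM favours this order. After scaling, miR-720 was higher in LKS cells (log2 ratio 0.69).

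The members detected in total BM were on the whole richer in guanine, though miR-690 (18.2%) and miR-706 (13.6%) were not. Among the 39 members with a sequence, the 12 detected in total BM had a median guanine share of 43.2% (13.6% to 70.0%), and the 27 not detected there a median of 23.8% (13.6% to 40.9%). A run of 4 guanines, GGGG, searched on the miRNA strand and chosen after the values were seen, was present in 7 of the 12 and in 0 of the 27. These 7 were miR-671-5p, miR-680, miR-705, miR-710, miR-711, miR-721 and miR-762. Of all 1679 mature mouse names in the RefSeq table, 11.2% hold such a run. Above a guanine share of 40%, total BM detected 7 of 8 members and LKS cells 0 of 8, whereas at or below it total BM detected 5 of 31.

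The same composition in mouse names outside the range went with detection less uniformly. Of the 101 such names with a sequence, the 20 detected in total BM had a median guanine share of 26.1% and the 81 others 22.7%. The 9 detected in total BM only had a median of 38.1%. A run of 4 guanines was found in 2 of the 20 and in 4 of the 81. Above a guanine share of 40%, total BM detected 7 of 12 and LKS cells 3 of 12. Length did not set the members apart, with a median of 22 bases in both classes. Names were matched only where identical, so these counts leave out most of the array, and miR-709, miR-714, miR-689, miR-720, miR-712, miR-715 and miR-760 among the detected members. Probe sequences were not used here, and the part of base composition in these signals was not tested.

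**Figure D4:**
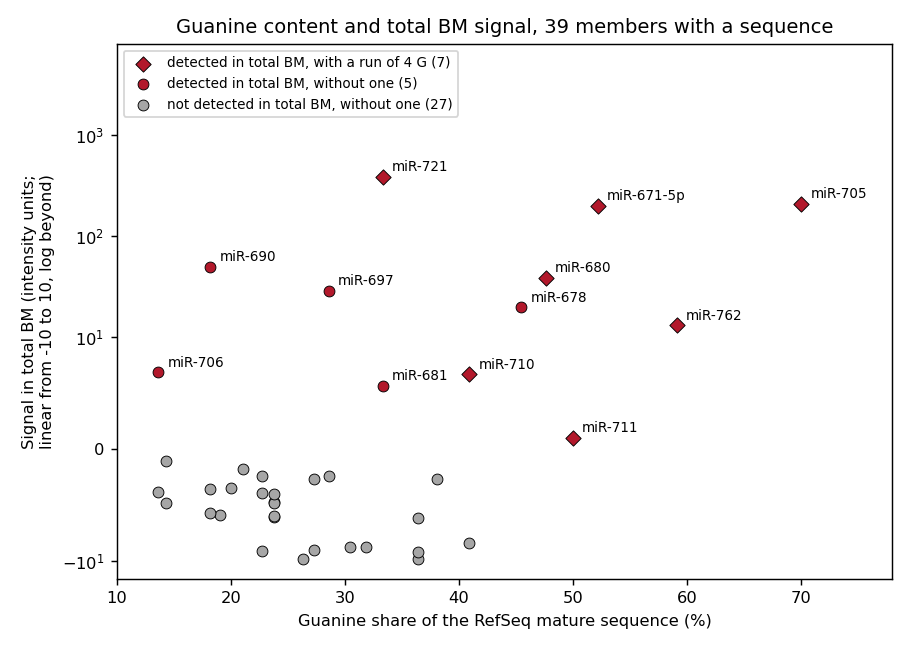
Total BM signal (vertical, intensity units, linear from -10 to 10 and logarithmic beyond) against the guanine share of the RefSeq mature sequence (horizontal, percent) for the 39 members with a sequence. All 7 members with a run of 4 guanines were detected, and of the 8 members above 40% guanine 7 were.

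The 46 members detected on neither array read -9.82 to 9.48 in total BM (median -4.76) and -14.0 to 6.21 in LKS cells (median -8.86). The 370 undetected names outside the range had medians of -2.84 and -5.23. Of the 46, 24 lay over 2 errors below 0 in total BM and 41 in LKS cells, so the deposited errors do not cover the background offset of either array. A miRNA in this class was not detectable at these signals, which does not show that it was absent.

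Some undetected members are known from other tissues or from blood stem cells. Both arms of miR-675, cut from the imprinted H19 RNA, which is known to act in quiescent haematopoietic stem cells, were undetected: miR-675-3p read -3.57 ± 2.01 in total BM and -4.85 ± 1.91 in LKS cells, and miR-675-5p read -8.39 ± 2.01 and -11.8 ± 1.91. MiR-744, within the span of the kinase gene Map2k4, read -9.04 ± 2.01 and -11.4 ± 1.91. MiR-708, within the span of Tenm4, read -4.86 ± 2.01 and -9.16 ± 1.91. The 5 names of the X-linked miR-741, miR-742 and miR-743, a cluster known from testis, read -7.42 to -3.95 in total BM and -10.3 to -5.55 in LKS cells, none detected.

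The ends of the range were also undetected. MiR-670 read -7.09 ± 2.01 in total BM and -11.5 ± 1.91 in LKS cells, and the highest number, miR-764, read -6.19 ± 2.01 and -8.27 ± 1.91 for the 3p arm and -1.77 ± 2.01 and -3.66 ± 1.91 for the 5p arm. Just below the range, miR-669a and miR-669b were detected on neither array and miR-669c in total BM only, at 17.4 ± 3.11. Just above it, miR-801_v10.1 was bright and detected in total BM only, at 521.9 ± 49.2 with an LKS signal of 0.82 ± 2.76, at least 49.8-fold lower. MiR-802, the next, was detected on neither array.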

How the data were processed

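Total RNA of 2 samples was extracted with a miRNeasy kit and labelled with Cy3, per the labels. The authors deposited linear signal intensity values per miRNA name with an error and a detection call of 0 or 1, per the file headers; the values are background-subtracted and unscaled between arrays, and the sources used here do not give the rule of the call. The authors also deposited a table on a log2-like scale, whose values rank every name as the signals do (column medians 1.46 for total BM and 1.00 for LKS; its constants are unknown), used as an alternative. Arrays were scaled to the 75th percentile of the 93 shared mouse miRNAs, and differences of at least 2-fold were counted. Errors of log2 ratios were propagated from the deposited errors. With 1 array per group no test was run, and the number of arrays limits the precision. Every member detected on an array is named, with undetected members that share a number with a detected one, the miR-741 to miR-743 names and the ends of the range; miR-675, miR-708, miR-744 and, in the closing section, miR-674, miR-685, miR-691 and miR-702 were named after their values were seen. Members, lists and rules were chosen with earlier results of these data known. The counting of folds was tested on simulated arrays for names detected on both arrays only, which does not cover the bounds or the background offset. Python 3.11.15, numpy 2.4.6 and pandas 2.3.3 were used.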

Additional observations from a re-analysis of the deposited data

Results flagged for a closer look

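Among names in the same number range, but left out of the comparisons as minor arms or as imprinted, 3 carried a detection call. MiR-674* was called on both arrays although miR-674 was called on neither. Its total BM signal was 5.34 ± 2.38 and its LKS signal 3.21 ± 2.25, each under 3 errors above 0. MiR-712* was called in total BM only, at 23.2 ± 2.61, with -10.8 ± 1.91 in LKS cells. MiR-770-3p was called in total BM only, at 11.8 ± 2.12, with -12.8 ± 1.91 in LKS cells. No array without RNA was available as a control. All 3 total BM signals lay below that of the brightest viral probe there (43.8).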

How the results depend on the processing

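No paired analysis was possible because there is 1 array per group. For the same reason no array could be left out. Of 48 log2 ratios of single members (6 members, 8 alternatives), 33 stayed within 2 errors of the ratio reported, and 15 did not. The sign changed in 2, miR-720 at -0.03 without scaling and miR-709 at 0.30 when scaled on the 75th percentile of all mouse miRNAs. The latter scaling also gave 1 member at least 2-fold higher, a median log2 ratio of -1.41 for the 6 members, and 2 bounds of at least 2-fold. Quantile normalization gave 1 member higher, as did a threshold of 1.5-fold, in each case miR-720. The median was -4.25 without scaling and -2.65 with recentred background, an alternative added after the data were seen, which left 5 bounds of at least 2-fold. Counting members detected on either array, by bounds, gave 14 lower. Requiring a signal above the brightest viral probe left 9 members detected in total BM. The count of 5 lower stayed at 4 or 5 under every other alternative. Relative to no scaling, the scalings raised each log2 ratio by 0.49 (non-miRNA probes), 0.59 (shared miRNAs that are not members), 0.72 (as reported), 0.97 (median) and 2.84 (all mouse miRNAs). Signal over background limits all values near 0.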

Other observations

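Detection calls and signals did not order the faint members alike. MiR-702, within the span of Plod3, was called undetected although its total BM signal was 9.48 ± 2.07 and its LKS signal 6.21 ± 1.94, the highest among the 46 members undetected on both arrays. In total BM, 12 mouse names with a lower signal were called detected, among them 4 members (miR-681, miR-706, miR-710 and miR-711), and in LKS cells 7 were.

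Among the 46 members detected on neither array, 3 (6.52%) had a total BM signal more than 3 combined errors above the LKS signal after each array's background was recentred, against 1 of 370 (0.27%) outside the range, and 0 in either set differed that far the other way. MiR-685, without a RefSeq gene, read 2.80 ± 2.04 in total BM and -12.8 ± 1.91 in LKS cells, 4.68 combined errors apart. MiR-674 read -1.01 ± 2.03 and -14.0 ± 1.91, 3.74 apart, and miR-691 read -2.72 ± 2.02 and -13.9 ± 1.91, 3.08 apart. These recentred differences were computed after the data were seen, and a deposited error that leaves out the offset makes them look more certain than they are. Of the 57 names with the lowest LKS signals, 18 (31.6%) were members, beside 11.5% of all mouse names. Of these 57, 10 were detected in total BM only, 3 of them members (miR-710, miR-711 and miR-762) and 7 not.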
